A study of Gossypium barbadense and Gossypium hirsutum with 72 samples.

Results

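Small RNA of the shoot apex was compared between a nulliplex-branch and a normal-branch line of upland cotton, G. hirsutum. Both were sampled at the squaring stage, at which the study describes visible flower buds. The members are the known miRNAs, that is, the table entries whose name starts with miR, in 6 libraries. Of 712 such names in the whole table, 479 had reads in these libraries. Summed by family number, they make 427 families of 600. The nulliplex group, miGh3np, is line 3798, sampled according to the labels with 12 leaves. The normal group, miGh3WT, is Huazhong 94-3130, sampled with 8 leaves. Each group has 3 libraries of stem tips. The study describes the lines as without common parents, so that branch type and line cannot be told apart in this comparison. Leaf number by the labels cannot be told apart from them either. The study's methods give 1 range of leaf numbers for both lines, and the 12 leaves on the labels of miGh3np lie above that range. The difference in leaf number therefore rests on the labels alone, which conflict with the methods. Where other groups are used, miGh1 and miGh2 are the same lines as seedlings and before squaring, and miGb1, miGb2 and miGb3 are the G. barbadense lines Xinhai16 (np, nulliplex) and Hai1 (WT, normal) at the same stages, with 3 libraries each.

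In a nulliplex plant the flower arises directly in a leaf axil of the main stem, while in a normal plant it arises on a fruiting branch. Plant miRNAs are cut from hairpin transcripts by DICER-LIKE1, are loaded into ARGONAUTE1 and guide the cleavage or repression of mRNAs to which they pair almost completely. Many of the conserved families act on transcription factors of the shoot apex. miR156 and miR157 hold shoots in the juvenile phase through SPL factors, miR172 acts on APETALA2-type repressors of flowering, and miR166 acts on the class III HD-ZIP factors of the meristem and of the upper side of leaves.

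The libraries held 862584, 1147435 and 1151989 miRNA reads in miGh3np, against 835340, 754812 and 863308 in miGh3WT, of which known miRNAs made up 98.1% to 98.4%. Levels are given as RPM, the reads of a miRNA scaled to a library of 1e6 miRNA reads. Reads under single names run from 5 upward throughout the table, so an entry of 0 can stand for up to 4 reads. A fold against a group at 0 is given as a bound that allows 4 reads in each of its libraries. For a family the 4 reads are allowed to its sum, so that a family of several names could hold more unlisted reads. The miGh3WT libraries stood apart from the other later libraries of G. hirsutum. Over 419 families, the group mean of miGh3np on the log2(RPM + 1) scale correlated with miGh2np at r = 0.88 and with miGh2WT at r = 0.85. The mean of miGh3WT correlated with miGh2np at r = 0.63 and with miGh2WT at r = 0.70, but with the seedlings miGh1np and miGh1WT at r = 0.83 and 0.81. The families share libraries, so that these values are descriptions. For single libraries, r was between 0.78 and 0.84 for pairs of miGh3np and between 0.80 and 0.83 for pairs of miGh3WT. Between these 2 groups r ran from 0.59 to 0.73. Pairs of miGh3np were no closer than its pairs with earlier groups, at 0.78 to 0.86 with miGh2np and 0.81 to 0.84 with miGh2WT. Pairs of miGh3WT ran from 0.76 to 0.81 with miGh1np and from 0.59 to 0.68 with miGh2np. All comparisons below rest on these miGh3WT libraries, and the part of this separation in them was not tested. The study reports a larger share of rRNA among the unique reads of the nulliplex than of the normal group at squaring, in both species. The part of that difference was not tested either.

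The first question was which families differed between the lines. With edgeR's quasi-likelihood test and Benjamini-Hochberg adjustment over all known and predicted miRNAs, 22 families rose and 35 fell in miGh3np among 273 families with enough reads to test. An adjusted p under 0.05 is the criterion for rose and fell throughout. Of all features tested, predicted miRNAs included, 24.2% were called, 8.84% as higher and 15.4% as lower. No family passed the stricter threshold for a differentially expressed miRNA (DEM, an adjusted p under 0.001 with an absolute log2 fold change over 1), and the smallest adjusted p of a family was 0.0033. Without adjustment 98 families had p under 0.05, and DESeq2 put 51 families past the DEM threshold, 12 higher and 39 lower. The RPM of the 2 groups did not overlap in any of the 57 families called, which is also true of 52.4% of all families tested. Leaving out each library in turn, 36 of the 57 stayed called in all 6 fits, 7 of them higher and 29 lower. The median log2 fold change of the tested families was -0.23, and -0.47 when libraries were scaled by their total alone. That scaling gave 12 families higher and 40 lower, and a fit of all 36 small RNA libraries gave 34 higher and 35 lower. Of the 57 families, 20 lost their call in the fit of all 36 and 38 lost it without the filter on low counts. With the replicate number as a block, 0 families were called. No family called changed its direction under any of the alternatives run.

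**Figure D1:**
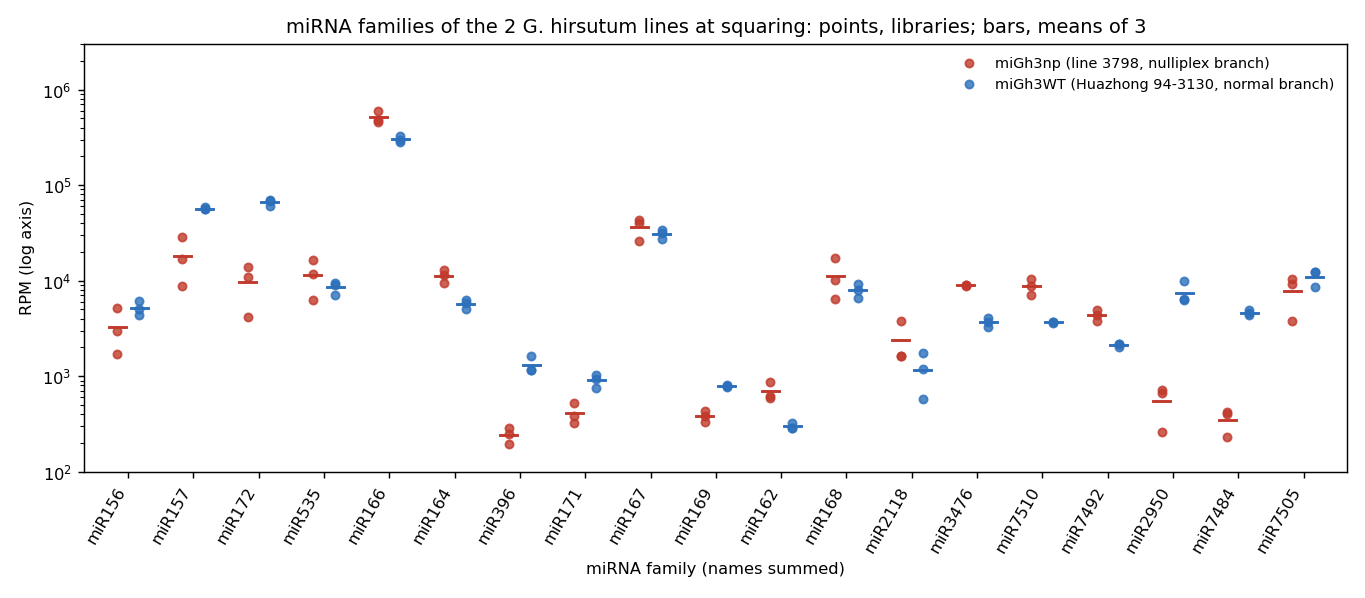
Level of 19 miRNA families (x axis) in RPM on a log axis; red points are the 3 miGh3np libraries, blue points the 3 miGh3WT libraries, and bars the means. miR396, miR2950 and miR7484 sit far lower in miGh3np, with means of 242, 550.2 and 351 RPM against 1315, 7491.7 and 4619 RPM in miGh3WT, while miR166, miR164 and miR3476 sit higher. miR172 sums a pair of names with nearly equal reads in miGh3WT.

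Of the families that act in meristems, organ polarity and boundaries, 2 rose, 1 fell and 5 did not pass the test among 8 tested. Their median log2 fold change was 0.26, beside -0.23 over all families. miR166 was the most abundant family of all. It stood at 479141, 456827 and 601521 RPM in miGh3np, against 294020, 282291 and 329839 RPM in miGh3WT. The lines did not overlap, and the log2 fold change was 1.08 ± 0.28 (SE, edgeR adjusted p = 0.045). Nearly all of it was read under 1 name, miR166a-3p, with a log2 fold change of 1.01 ± 0.25 (adjusted p = 0.039). The name lost its call in 5 of the 6 fits without 1 library, up to an adjusted p of 0.14. The call of the family ended when any 1 miGh3WT library was left out: the adjusted p was 0.15 without replicate 1, 0.16 without replicate 2 and 0.13 without replicate 3. It was 0.053 without the filter on low counts.

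miR164, which cuts mRNAs of the NAC factors that set organ boundaries, had 11377, 9513 and 12949 RPM in miGh3np, against 5793, 5030 and 6333 RPM in miGh3WT. Each miGh3np library was above each miGh3WT library, and the log2 fold change was 1.29 ± 0.28 (adjusted p = 0.023). The adjusted p was 0.073 to 0.074 without 1 of the miGh3WT replicates 1, 2 or 3, and 0.086 without the filter. miR396, which acts on GROWTH-REGULATING FACTORs of cell proliferation, had 194, 285 and 247 RPM in miGh3np, against 1162, 1615 and 1166 RPM in miGh3WT. It fell by 2.12 ± 0.30 on the log2 scale (adjusted p = 0.0064) and stayed called without any 1 library, but not without the filter (adjusted p = 0.058). miR171, which acts on HAIRY MERISTEM-type GRAS factors, averaged 411 ± 103 RPM in miGh3np and 907 ± 137 RPM in miGh3WT (SD, n = 3 each, edgeR adjusted p = 0.071), and missed the threshold. miR165, miR159, miR319 and miR394 also missed it.

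Among the 5 families of phase change and flowering, 1 fell and 4 did not pass the test, with a median log2 fold change of -0.72. miR172 had 10836, 13962 and 4156 RPM in miGh3np, against 68193, 60391 and 69749 RPM in miGh3WT. The sum fell by 2.55 ± 0.41 on the log2 scale (adjusted p = 0.0084). The sum holds a pair of names with nearly equal reads in miGh3WT: miR172a held 28546, 22728 and 30313 reads in miGh3WT and miR172e-3p held 28418, 22856 and 29902. Where both names had over 200 reads, which was so in 7 libraries of the series, they differed by at most 2.57%. Whether they are the same reads is not given in the sources used here. With the pair counted once, miGh3WT had 34173, 30280 and 35113 RPM, still above every miGh3np library, and the family fell by 1.56 ± 0.40 (adjusted p = 0.041). For miR172a alone the fall was 1.59 ± 0.42 (adjusted p = 0.047), and this call ended without miGh3WT replicate 1 (adjusted p = 0.16), replicate 2 (0.10) or replicate 3 (0.16), or miGh3np replicate 1 (0.15).

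miR157 had 16997, 28643 and 8793 RPM in miGh3np, against 56481, 58547 and 55755 RPM in miGh3WT. The groups did not overlap, but the miGh3np libraries spread over a wide range, and the log2 fold change of -1.40 ± 0.39 had an adjusted p of 0.052. In this family miGh3WT did not sit at the level of seedlings, which averaged 419527 RPM in miGh1np and 406041 RPM in miGh1WT. In miR162 it lay near them, with means of 298 RPM in miGh3WT, 276 RPM in miGh1np and 291 RPM in miGh1WT. How many families lay near the seedlings was not counted. miR156 had 2988, 5162 and 1692 RPM in miGh3np, against 5085, 6199 and 4387 RPM in miGh3WT. The ranges overlapped and the family did not pass the test (log2 fold change -0.41 ± 0.38, adjusted p = 0.50). miR535, a relative of miR156, overlapped as well, with means of 11467 RPM in miGh3np and 8500 RPM in miGh3WT.

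None of the 4 auxin families tested passed, and their median log2 fold change was 0.55. The most abundant of them was miR167, which acts on ARF6 and ARF8. It averaged 36418 ± 9348 RPM in miGh3np and 31049 ± 3430 RPM in miGh3WT (SD, n = 3 each, edgeR adjusted p = 0.16). None of the 7 families of nutrients and copper proteins passed either. miR169, which acts on NF-YA subunits, came close, with 384, 429 and 332 RPM in miGh3np, against 777, 792 and 806 RPM in miGh3WT (log2 fold change -0.77 ± 0.21, adjusted p = 0.051). It passed under several of the other settings, DESeq2 among them (adjusted p = 6.2e-05, with 0.28 as the highest of its alternatives).

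The small RNA pathway regulates itself through miR162, which acts on DICER-LIKE1, and miR168, which acts on ARGONAUTE1. miR162 had 875, 596 and 622 RPM in miGh3np, against 321, 286 and 287 RPM in miGh3WT. It rose by 1.50 ± 0.24 on the log2 scale (adjusted p = 0.0085) and stayed called without any 1 library, but not without the filter on low counts (adjusted p = 0.17). The rise of this sum lay in miR162a-5p, with a log2 fold change of 2.07 ± 0.27 (adjusted p = 0.0063). The other arm of the hairpin, miR162a-3p, averaged 162.1 RPM in miGh3np and 149.7 RPM in miGh3WT (log2 fold change 0.31 ± 0.30, adjusted p = 0.58). It was not shown to rise. Which arm acts on DICER-LIKE1 is not given in the sources used here, so the sum is no measure of that action. miR168 ran from 6443 to 17382 RPM in miGh3np, against 6596 to 9318 RPM in miGh3WT, and did not pass (adjusted p = 0.27).

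Of the families that act on disease resistance genes or MYB factors, 1 of 4 tested was called. miR828, which acts on MYB factors, was listed at 0 in all miGh3np libraries, against 22.7, 25.2 and 13.9 RPM in miGh3WT. At no more than 4 reads in each miGh3np library, it was at least 5.37-fold lower (edgeR adjusted p = 0.0074, and 0.17 without the filter). miR858, which acts on MYB factors of flavonoid synthesis, had 0, 5.23 and 10.4 RPM in miGh3np, against 45.5, 111 and 89.2 RPM in miGh3WT, and did not pass (adjusted p = 0.13). miR2118 was the most abundant of this list and overlapped between the lines.

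Of 15 families described from cotton, 3 rose, 2 fell and 10 did not pass, with a median log2 fold change of -0.12. Their targets are less well established than those of the conserved families. miR3476 had 8804, 9026 and 8972 RPM in miGh3np, against 3275, 4080 and 3675 RPM in miGh3WT. It rose by 1.59 ± 0.18 on the log2 scale (adjusted p = 0.0057), and its miGh3np libraries lay within a narrow range. miR7510 had 10488, 7166 and 8698 RPM in miGh3np, against 3625, 3671 and 3684 RPM in miGh3WT (log2 fold change 1.55 ± 0.20, adjusted p = 0.0064). miR7492 rose by 1.32 ± 0.14 (adjusted p = 0.0057). These 3 stayed called without any 1 library, but miR7492 did not without the filter (adjusted p = 0.064).

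miR7484 had 422, 400 and 230.0 RPM in miGh3np, against 4891, 4577 and 4388 RPM in miGh3WT. miR2950 had 671, 262 and 717 RPM in miGh3np, against 6237, 9810 and 6428 RPM in miGh3WT. In both families every miGh3np library lay far below every miGh3WT library. The log2 fold changes were -3.47 ± 0.23 for miR7484 (adjusted p = 0.0033) and -3.43 ± 0.51 for miR2950 (adjusted p = 0.0067). The most abundant family of the list, miR7505, averaged 7837 ± 3554 RPM in miGh3np and 11031 ± 2142 RPM in miGh3WT (SD, n = 3 each, edgeR adjusted p = 0.64).

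The other families called belong to none of these lists and were named after their values were seen. Of the 31 called families with reads in both lines, the 19 that rose had log2 fold changes of 0.89 to 2.68 and the 12 that fell had -3.47 to -1.50. miR4414 had 1604, 1138 and 1624 RPM in miGh3np, against 451, 584 and 388 RPM in miGh3WT (log2 fold change 1.93 ± 0.29, adjusted p = 0.0071). miR8636 had 33.6, 26.1 and 24.3 RPM in miGh3np, against 327, 354 and 321 RPM in miGh3WT (log2 fold change -3.29 ± 0.27, adjusted p = 0.0033). Both kept their calls without any 1 library, and both lost them without the filter on low counts (adjusted p = 0.064 for miR4414 and 0.051 for miR8636). The largest rise of a family with reads in both lines was that of miR5813, with 3490, 2832 and 7263 RPM in miGh3np, against 573, 1623 and 639 RPM in miGh3WT (log2 fold change 2.68 ± 0.65, adjusted p = 0.035). Its libraries spread widely, and its call ended without miGh3WT replicate 1 (adjusted p = 0.13) or replicate 3 (0.13), or miGh3np replicate 1 (0.055) or replicate 3 (0.071), and without the filter (0.065).

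**Figure D2:**
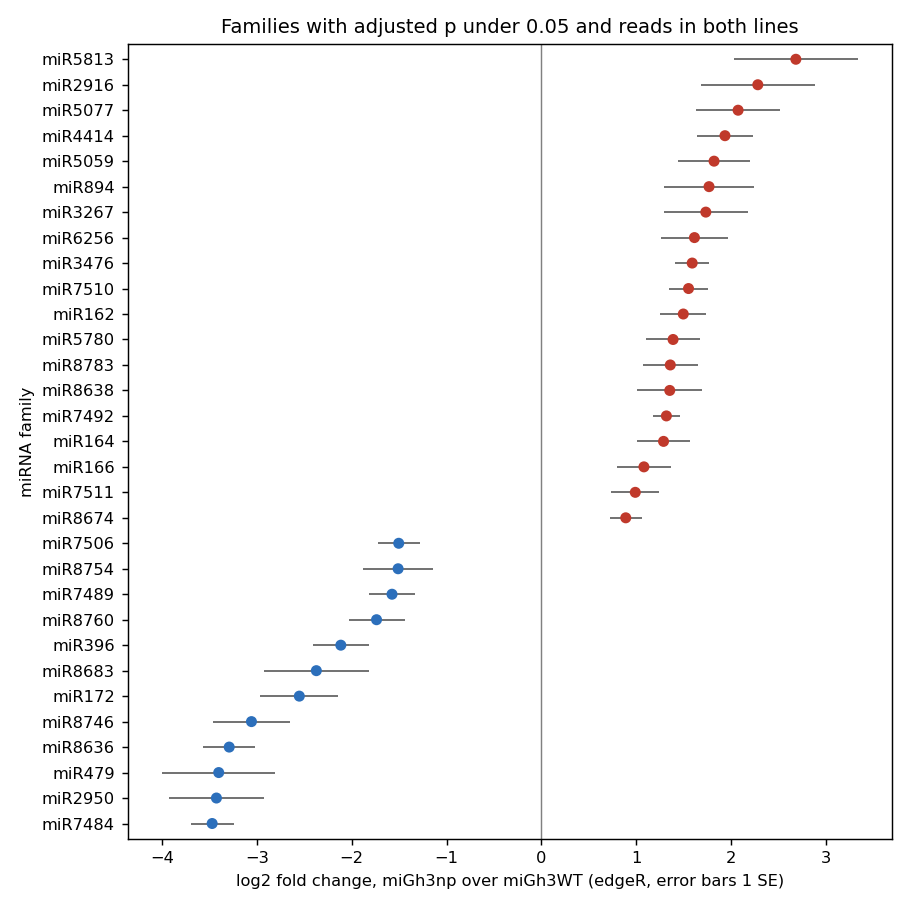
Log2 fold change, miGh3np over miGh3WT (x axis, edgeR, error bars 1 SE), of the 31 called families with reads in both lines (y axis). The 19 families that rose lie between 0.89 and 2.68 and the 12 that fell between -3.47 and -1.50, with no call at smaller changes.

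The remaining 26 called families were listed at 0 in all libraries of one line. The 23 families without reads in miGh3np averaged 20.6 to 1780 RPM in miGh3WT, with reads in all 3 libraries. With 4 unlisted reads of the whole family allowed in each miGh3np library, they were at least 5.37-fold to at least 471-fold lower. The most abundant of them were miR6114, with 1852, 1594 and 1895 RPM in miGh3WT, miR6257, with 1556, 1698 and 1707 RPM, and miR6103, with 1225, 1355 and 1236 RPM. These families each had an edgeR adjusted p of 0.0033, but in the fit of all 36 libraries the adjusted p was 0.12 for miR6114 and 0.14 for miR6257. In that fit 13 of the 26 families lost their call. Only 3 called families showed the opposite pattern. miR8032 had 234, 153 and 210.1 RPM in miGh3np and was listed at 0 in miGh3WT, at least 40.0-fold higher (adjusted p = 0.0057, and 0.14 in the fit of all 36 libraries). miR1157 and miR5221 averaged 74.1 and 78.7 RPM in miGh3np, at least 14.7-fold and 15.4-fold higher. The call of miR5221 ended without miGh3np replicate 1 (adjusted p = 0.074) or replicate 2 (0.057), and without the filter (0.055).

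These 23 families were chosen for reads in miGh3WT and none in miGh3np, and their detection in the other groups is a description. Among them, 18 had reads in at least 1 library of miGh1np and 16 in miGh1WT, but 1 had reads in miGh2np and 5 in miGh2WT. In G. barbadense 14 and 16 had reads in the seedling groups miGb1np and miGb1WT, 6 in miGb2np, 4 in miGb2WT and 2 in miGb3np, and again 16 in miGb3WT. Of all 273 families tested, 95.2% had reads in miGh1np, 93.0% in miGh1WT, 82.8% in miGh2np and 88.3% in miGh2WT. In G. barbadense the shares were 79.9% in miGb1np, 80.6% in miGb1WT, 75.5% in miGb2np, 79.9% in miGb2WT, 70.0% in miGb3np and 87.2% in miGb3WT. The seedling libraries were the deepest, with 2.24 to 2.57 M miRNA reads in miGh1WT and 3.42 to 3.94 M in miGb1WT, against 1.27 to 1.38 M in miGh2WT, and the part of depth in these counts was not tested. The 13 families without a read in any pre-squaring library nor in miGb3np included miR6103 and miR828.

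**Figure D3:**
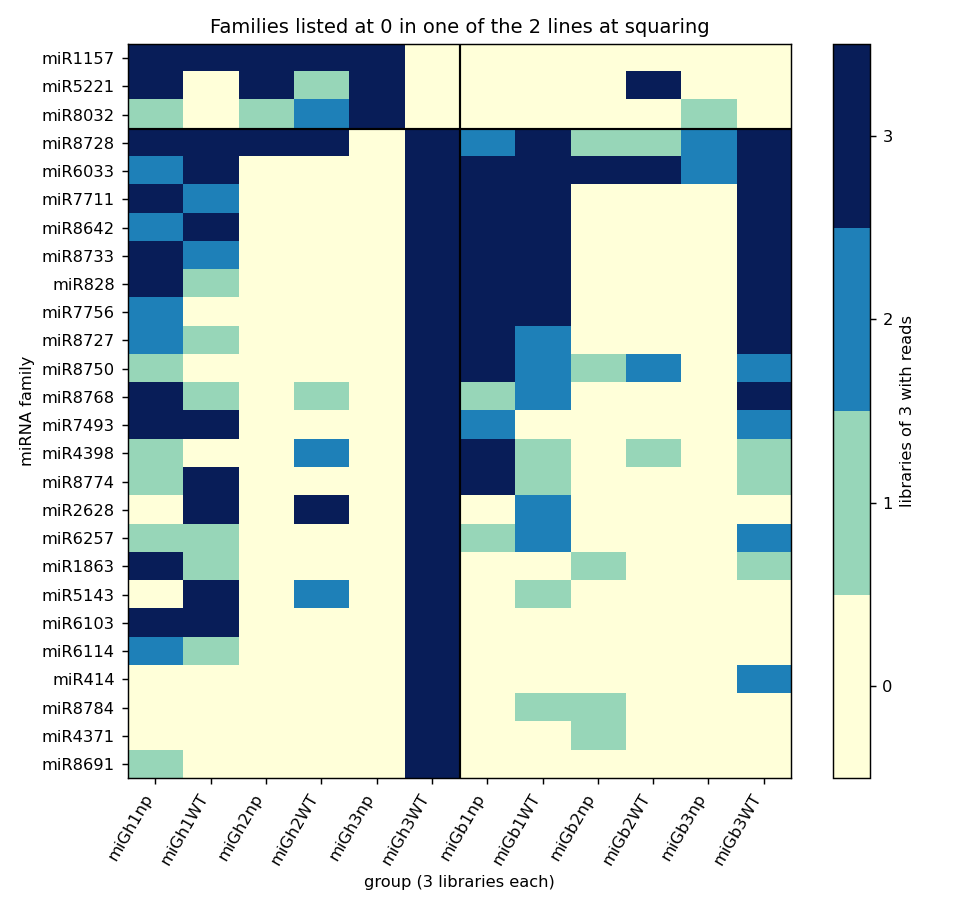
Number of libraries with reads, of 3 (colour), for the 26 families listed at 0 in one line at squaring (y axis) in the 12 groups of the series (x axis; np nulliplex, WT normal; G. hirsutum left of the vertical line, G. barbadense right of it). The 23 families under the horizontal line were chosen for reads in miGh3WT and none in miGh3np; 18 of them have reads in miGh1np and 16 in miGb3WT, against 1 in miGh2np and 2 in miGb3np.

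Names that share a family number could alternate between libraries. In 9 families with over 100 reads in each library, a name that held at least 25% of the largest family sum was at 0 in another library. In miR156 the reads stood under miR156k in all miGh3np libraries, with 2530, 5888 and 1913 reads. In miGh3WT they stood under miR156a in replicate 1 (4206 reads), miR156a-5p in replicate 2 (4641 reads) and miR156k in replicate 3 (3750 reads). A comparison by name therefore sets replicates of 1 group apart, whereas the sum overlapped between the lines. miR7484 was read as miR7484d in miGh3np, with 364, 459 and 265 reads, and as miR7484h in miGh3WT, with 4086, 3455 and 3788 reads. By name, miR7484h was at least 1217-fold lower and miR7484d at least 70.3-fold higher in miGh3np, while the sum fell by 3.47 on the log2 scale. miR8771 was read as miR8771c or miR8771d in miGh3np and as miR8771a in miGh3WT, where it had 3204, 3055 and 3684 reads. The name miR8771a fell (adjusted p = 0.0021), whereas the sum, with 2984, 365 and 1920 RPM in miGh3np against 3836, 4047 and 4267 RPM in miGh3WT, did not pass the test (adjusted p = 0.43).

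**Figure D4:**
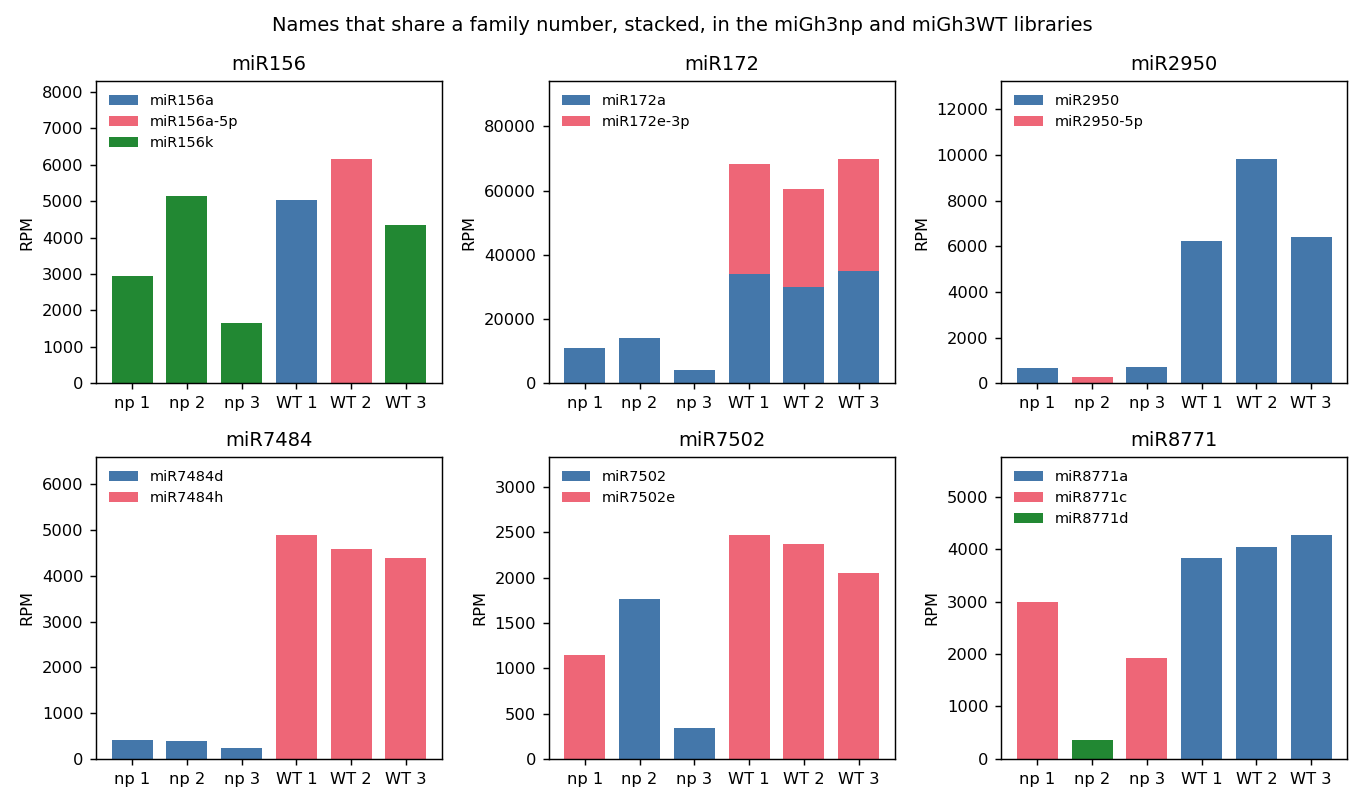
Level in RPM (y axis) under each name of 6 families, stacked, in the miGh3np libraries (np 1 to 3) and the miGh3WT libraries (WT 1 to 3). The colour changes between libraries in miR156, miR2950, miR7502 and miR8771, separates the lines in miR7484, and in miR172 a second name of nearly the same height (34020, 30280 and 34637 RPM) stands on miR172a in miGh3WT.

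Tested by single name, 22 of 291 known names rose and 41 fell in miGh3np, and 24.6% of all features were called in that fit, 8.45% as higher and 16.2% as lower. No name passed the DEM threshold with edgeR, with 98 names at an unadjusted p under 0.05, whereas DESeq2 put 59 names past it. Of the 63 names called, 55 belong to a called family and 8 do not. Those 8 were miR8771a, miR845, miR157d-3p, miR171b-3p, miR390a-3p and miR7491, which fell, and miR160 and miR319b, which rose. The calls of miR319b, miR390a-3p and miR7491 ended in 6, 5 and 5 of the 6 fits without 1 library, at adjusted p up to 0.11, 0.075 and 0.17. miR390a-3p, a minor arm of its family, averaged 14.2 RPM in miGh3np and 85.6 RPM in miGh3WT, while the sum of miR390, which starts the TAS3 pathway against ARF3 and ARF4, averaged 3669 RPM in miGh3np and 2981 RPM in miGh3WT. Conversely, 4 families were called with none of their names called: miR2950, miR7511, miR8638 and miR894. In miR2950, replicate 2 of miGh3np held its 301 reads under miR2950-5p and none under miR2950, and the name alone had an adjusted p of 0.27.

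The names that the study singled out at this comparison were measured as follows. miR6103-3p was listed at 0 in miGh3np, against 1023, 1023 and 1067 reads in miGh3WT, and was at least 334-fold lower (adjusted p = 0.0021). miR414 was listed at 0 in miGh3np, against 311, 423 and 332 RPM in miGh3WT, and was at least 93.0-fold lower (adjusted p = 0.0047). miR5537 had 0, 639 and 651 reads in miGh3np and was listed at 0 in miGh3WT. miR5021 was listed at 0 in miGh3np, against 0, 35 and 366 reads in miGh3WT. Neither of these last names had reads in enough libraries to be tested. The abundant names miR3954, with 148693, 219193 and 74808 RPM in miGh3np against 296897, 277677 and 257481 RPM in miGh3WT, and miR157a-5p did not pass the test (adjusted p = 0.25 and 0.057).

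To learn whether these differences were those of other stages and of the other species, the same families were compared between the lines elsewhere. Before squaring, 1 of the 36 called families that could be tested there was called, in the same direction, in a comparison in which 2.22% of all features were called. At squaring in G. barbadense, which shares no library with G. hirsutum, 38 of the 57 could be tested, 25 were called in the same direction and 1 in the opposite one. In that comparison 51.8% of all features were called. Among all 213 families tested in both species at squaring, 95 were called in G. barbadense with the direction of G. hirsutum and 17 with the opposite one.

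Several families reached levels in the normal-branch apices at squaring that no other group had. miR2950 averaged 550.2 RPM in miGh3np and 7491.7 RPM in miGh3WT, and 448 RPM in miGb3np and 5177 RPM in miGb3WT, while the other groups averaged at most 832 RPM. miR7484 averaged 351 RPM in miGh3np and 4619 RPM in miGh3WT, and 323 RPM in miGb3np and 2329 RPM in miGb3WT. miR172, with the pair of names counted once, averaged 9651 RPM in miGh3np and 33189 RPM in miGh3WT, and 4000.2 RPM in miGb3np and 27231 RPM in miGb3WT. In 19 of the 35 families that fell, miGh3WT and miGb3WT were the 2 highest of the 12 groups, and in 28 the highest was miGh3WT. These families were called for being high in miGh3WT, and among all tested families with a higher mean RPM in miGh3WT than in miGh3np, the same was true of 40.8% and 63.9%. Of the 22 that rose, 9 were highest in miGh3np, beside 36 of all 104 tested families with a higher mean RPM in miGh3np. On the log2(RPM + 1) scale, miGh3np lay closer than miGh3WT to the mean of the pre-squaring groups in 52 of the 57 called families, and in 199 of all 273 tested.

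**Figure D5:**
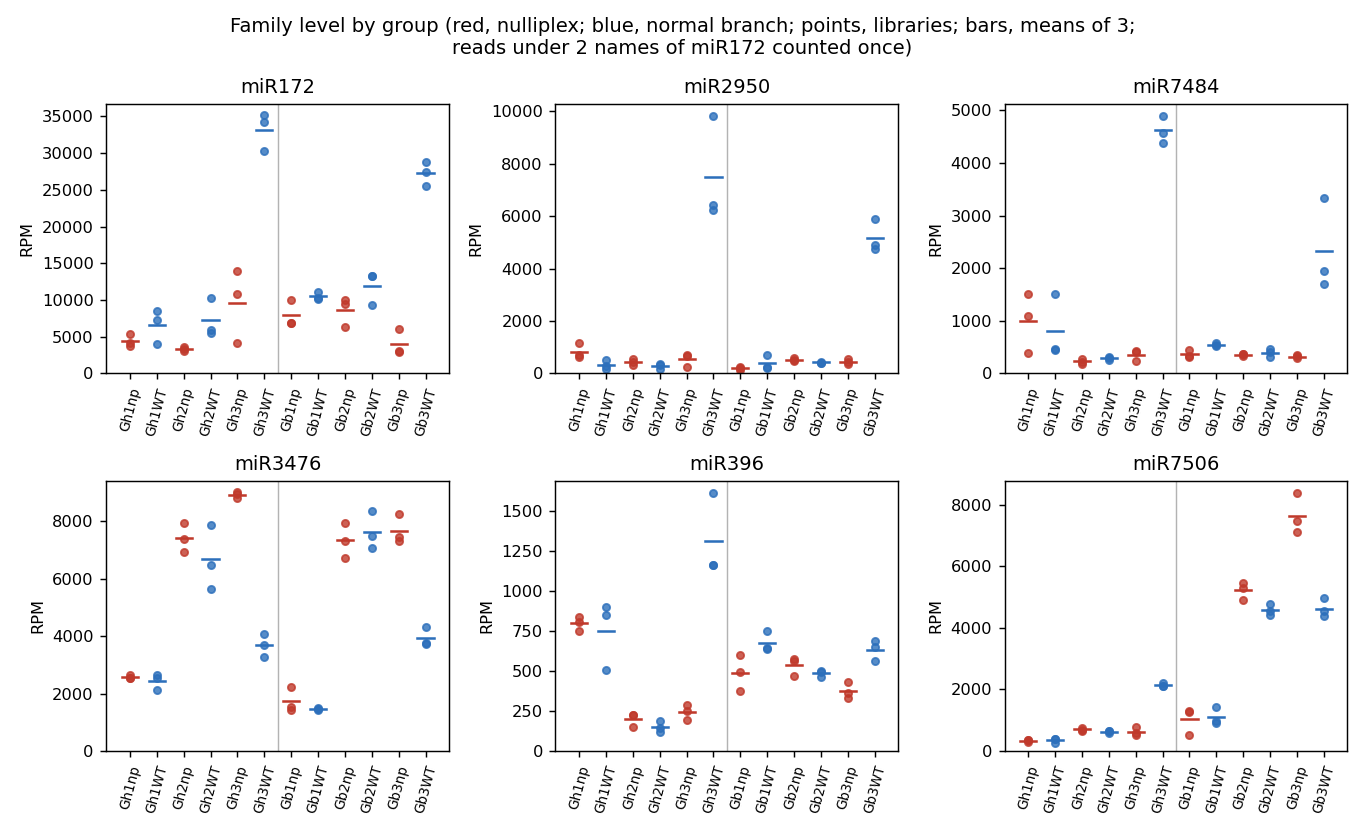
Level of 6 families in RPM (y axes) in the 12 groups (x axes; G. hirsutum left of the grey line, G. barbadense right of it); points are libraries, bars means of 3, red nulliplex and blue normal branch. miR172, miR2950 and miR7484 stand out in Gh3WT and Gb3WT, miR3476 is lower there than in the other groups past the seedling stage, and miR396 and miR7506 differ between the species.

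The difference between branch effects was tested in 1 fit of all 36 small RNA libraries. A branch effect is the log2 fold change of the nulliplex over the normal line. Branch type, line and leaf number cannot be told apart in it. Leaf numbers by the labels were 12 in miGh3np and 8 in miGh3WT, but 5 in miGh2np and 6 in miGh2WT. In miGb3np and miGb3WT they were 9 and 11. The part of leaf number in these contrasts was not tested. Of 414 families, 13 differed between squaring and pre-squaring in G. hirsutum, 8 with a higher and 5 with a lower log2 fold change at squaring, and 1.61% of all features were called, 1.07% as higher and 0.536% as lower. Among these were 12 of the 57 families called at squaring. The branch effect of miR396 was -2.12 at squaring and 0.38 before it, and the effects differed by -2.48 ± 0.35 (adjusted p = 1.1e-04). That of miR2950 differed by -4.05 ± 0.58 (adjusted p = 1.1e-04), that of miR7484 by -3.16 ± 0.49 (adjusted p = 1.6e-04), that of miR3476 by 1.44 ± 0.22 (adjusted p = 1.6e-04) and that of miR162 by 1.50 ± 0.29 (adjusted p = 0.0025, and 0.058 without miGh2WT replicate 3). The effects of miR166 (difference 0.96 ± 0.26, adjusted p = 0.061) and miR172 (-1.40 ± 0.52, adjusted p = 0.24) were not shown to differ between the stages. The value of miR172 is for the sum that holds both names of its pair. In this sum miGh3WT averaged 66111 RPM, against 33189 RPM with the pair counted once. The means of miGh3np, miGh2np and miGh2WT were the same either way. Without the filter on low counts the calls of miR2950 and miR7484 were kept, and those of miR396 (adjusted p = 0.44), miR3476 (0.053) and miR162 (1.00) ended.

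Between the species at squaring, 27 of 414 families had different branch effects, 18 with a higher and 9 with a lower log2 fold change in G. hirsutum, and 3.64% of all features were called, 2.47% as higher and 1.18% as lower. Of the 57 families called in G. hirsutum, 3 were among them: miR396, miR7506 and miR6033. The call of miR6033 ended in 10 of the 12 fits without 1 library. miR396 averaged 373 RPM in miGb3np and 634 RPM in miGb3WT, where its branch effect was -0.27 ± 0.14, and the species differed by -1.94 ± 0.35 (adjusted p = 7.8e-04, and 1.00 without the filter). miR7506 fell in miGh3np, with 785, 500.2 and 586 RPM against 2099.7, 2122 and 2218 RPM in miGh3WT, but rose in miGb3np, with means of 7644 RPM in miGb3np and 4627 RPM in miGb3WT. Its branch effects differed by -2.82 ± 0.29 (adjusted p = 3.2e-07). miR2950, miR3476 and miR162 had differences of -0.46 ± 0.56, 0.05 ± 0.22 and 0.07 ± 0.29.

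The mRNA of these lines was sequenced in separate libraries of the same groups, Gh3np and Gh3WT, 3 each, with 25.3 to 26.2 M reads counted in each. The predicted targets below were picked by the study on these samples, among its differentially expressed genes, for moving against their miRNA. Neither their call nor their direction is therefore independent evidence. These targets are part of the study's list, and its targets of miR5021 and miR414 were not analysed here. Of the 8 targets taken, 7 rose and 1 fell, which their selection implies. Over all genes, which were not so selected, 13.4% were called as higher and 14.3% as lower. CotAD_57424 (CRK10, a cysteine-rich receptor-like kinase), a predicted target of miR6103-3p, had 37.0, 38.0 and 40.4 RPKM in Gh3np, against 11.5, 17.5 and 12.02 RPKM in Gh3WT (log2 fold change 1.43 ± 0.16, edgeR adjusted p = 5.8e-04). Of the other predicted targets of miR6103-3p, CRK25, GC1 and POK2 rose by 1.01 to 1.28 on the log2 scale. CRK26 rose by 3.37 at low levels, with means of 0.52 RPKM in Gh3np and 0.047 RPKM in Gh3WT. CotAD_23640, a hydroxyproline-rich glycoprotein gene and predicted target of miR2950, had 7.58, 8.07 and 9.33 RPKM in Gh3np, against 3.46, 3.43 and 3.71 RPKM in Gh3WT (log2 fold change 1.16 ± 0.15, adjusted p = 0.0013). CotAD_28172, a PAS domain kinase gene and predicted target of miR156a-5p, rose by 1.61 ± 0.24 (adjusted p = 0.0020), although the sum of miR156 did not pass the test and miR156a-5p had reads in 1 library alone. WAKL1, a wall-associated kinase-like gene and predicted target of miR5537, fell by 3.52 ± 0.62 (adjusted p = 0.0042) from low levels, at most 0.0865 RPKM in Gh3np and at least 0.409 RPKM in Gh3WT.

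CotAD_75643 (HB-8), a class III HD-ZIP gene of the class that miR166 acts on, averaged 3.15 ± 0.26 RPKM in Gh3np and 1.92 ± 0.43 RPKM in Gh3WT (SD, n = 3 each, edgeR adjusted p = 0.11), and did not pass the test. Of the green leaf genes, CA1, a carbonic anhydrase, had 41.6, 34.3 and 27.6 RPKM in Gh3np, against 41.0, 56.7 and 58.1 RPKM in Gh3WT. It fell by 0.67 ± 0.18 (adjusted p = 0.022), and its call ended without Gh3WT replicate 3 (adjusted p = 0.061), Gh3np replicate 2 (0.074) or Gh3np replicate 3 (0.082). GGR, which the study names geranylgeranyl reductase and groups with geranylgeranyl pyrophosphate synthases, averaged 20.8 RPKM in Gh3np and 23.4 RPKM in Gh3WT (adjusted p = 0.30). SEP3, a floral organ gene, had 9.17, 11.7 and 16.5 RPKM in Gh3np, against 10.02, 0.80 and 12.6 RPKM in Gh3WT, so that Gh3WT replicate 2 stood below the others. BRC1, a repressor of branching, had 2.84, 1.66 and 1.19 RPKM in Gh3np, against 2.85, 0 and 0.546 RPKM in Gh3WT. SVP, a repressor of flowering, averaged 26.8 RPKM in Gh3np and 34.9 RPKM in Gh3WT (adjusted p = 0.062). The part of tissue makeup in the miRNA differences was not tested.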

How the data were processed

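Small RNA values are raw read counts by miRNA name, as deposited. The authors removed adaptors and low-quality reads, required perfect genome matches (SOAP2), took names from miRBase and predicted further miRNAs with Mireap. How reads that fit several names were assigned is not given in the sources used here. For mRNA, the authors deposited read counts and RPKM of each gene from SOAP2 alignments. Names were summed by family number, and predicted miRNAs stayed in the fitted tables. Groups of 3 libraries were compared with the quasi-likelihood F test of edgeR 4.0.16 in R 4.3.3 (TMM scaling, filterByExpr at a minimum count of 10), and p was adjusted by Benjamini-Hochberg over each whole table. SEs were derived from the fold change and F. The study calls its replicates biological, but the labels do not say which plants they came from, so p measures the spread between these libraries. RPM are scaled to the library total and fold changes by TMM. A fold against a group at 0 allows 4 reads, of a name or of a family sum, in each of its libraries and covers counting error only.

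Members and lists were chosen with earlier results of these data known. Named were, of each list, the most abundant family and up to 4 called families with the largest change, the names the study singled out, names with over 5% of a named family, and all 14 mRNAs of a list taken from the study. Other families were named after their values were seen. Alternatives were DESeq2 1.42.0, limma 3.58.1 on log2(RPM + 1), no filter, the library total alone, all 36 libraries, known miRNAs alone, the replicate block, leaving out each library, and reads under a pair of names counted once when both had over 200 reads and differed by at most 3%, or by 10% (chosen after seeing the data). The fits were tested on simulated data.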

Additional observations from a re-analysis of the deposited data

Results flagged for a closer look

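Of the 57 families called at squaring, 12 had branch effects that differed between squaring and pre-squaring in G. hirsutum. These were called by the edgeR contrast in the fit of all 36 small RNA libraries (adjusted p under 0.05). The log2 fold change was higher at squaring for miR162 (difference 1.50), miR3267 (1.79), miR3476 (1.44), miR5059 (2.08), miR7510 (1.12) and miR8674 (0.72), and lower for miR2950 (-4.05), miR396 (-2.48), miR7484 (-3.16), miR7506 (-1.64) and miR8683 (-1.87). For miR1157, which was listed at 0 in miGh3WT, the fitted difference of 8.96 depends on the prior count and is no measure of size. Without the filter on low counts, 10 of these 12 calls ended, those of miR2950 and miR7484 being kept, and in a fit of the 12 libraries of the contrast 5 ended (miR3267, miR5059, miR7510, miR8674 and miR8683). The calls of miR7510, miR8674, miR3267 and miR5059 rested on most of the libraries, ending in 10, 10, 9 and 8 of the 12 fits without 1 library, and those of miR162 and miR8683 ended without miGh2WT replicate 3 (adjusted p = 0.058) and miGh2WT replicate 1 (0.052).

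Between G. hirsutum and G. barbadense at squaring, the same kind of contrast called 27 families. Among the 57 families and those named from the lists, these were miR396 (difference -1.94), miR7506 (-2.82), miR7505 (1.25) and miR6033. Of them, miR7505 was not called in G. hirsutum itself and lost its call in 3 of 12 fits without 1 library. For miR6033, listed at 0 in miGh3np, the fitted difference of -7.60 depends on the prior count as well, and its call ended in 10 of 12 such fits. The calls of miR396 and miR6033 ended without the filter, and those of miR6033 and miR7505 in the fit of the 12 libraries of the contrast. All these differences share the miGh3np and miGh3WT libraries, including the separation of miGh3WT described above, whose part in them was not tested. Branch type, line and leaf number cannot be told apart in these branch effects.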

How the results depend on the processing

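For families called at squaring, 57 in the comparison reported, DESeq2 gave 99, no filter on low counts 19 (38 of the 57 lost), all 36 libraries in 1 fit 69 (37 shared with the 57), and fits without 1 library 44 to 78, while 0 passed the DEM threshold as reported or without any 1 library, but 51 with DESeq2, 26 with limma and 16 with all 36 libraries in 1 fit. For single names, 63 as reported, DESeq2 gave 106, no filter 17, and fits without 1 library 53 to 94, with 0 past the DEM threshold as reported or without any 1 library, but 59 with DESeq2, 30 with limma, 14 with all 36 libraries and 3 without a filter. With the replicate number as a block, 0 families and 0 names were called at squaring. Deviations of same-numbered libraries from their group means correlated at r from -0.04 to 0.02 over families and from -0.10 to 0.03 over names. These correlations over features cannot decide whether the numbers mark a shared batch, and the part of pairing in the loss of calls was not tested. The stage contrast, 13 as reported, gave 77 with DESeq2, 26 with no filter (2 of the 12 families named for it among them) and 7 to 19 without 1 library (7 without miGh2WT replicate 3, and 8 without miGh2np replicate 1, miGh2np replicate 3 or miGh3WT replicate 3). The species contrast, 27 as reported, gave 73 with DESeq2, 12 with its 12 libraries alone and 15 to 30 without 1 library (15 without miGh3WT replicate 3 and 16 without miGb3np replicate 3). Of the 14 mRNAs, 8 to 9 were called without 1 library, against 9 as reported. miR7505, not called, had log2 fold changes of -0.43 to 0.0064 without 1 library, the positive one without miGh3np replicate 3. All 57 families called were called by DESeq2 as well. The causes were not tested.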
